A study of Mus musculus with 2 samples.

Results

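Mir143 and Mir145a are the genes of a pair of microRNAs (miRNAs) that lie beside each other on mouse chromosome 18 and are known from smooth muscle. Their members here are the reads of 19 to 25 nt that match, without a mismatch and in the sense direction, the GENCODE M21 hairpin of either gene. They are 2 of 2201 annotated miRNA genes, of which 1395 had any such read and 343 had at least 200 in the deposited tables together. The labels describe small RNA of whole testis from C57BL/6 mice of 23 days post partum (dpp), 1 sample of the genotype Stambp-ps1+/- and 1 of Stambp-ps1-/-. No treatment is named, and the number of animals behind each sample is not given in the sources used here. There are 2 tables of read sequences with counts, both filed under the Stambp-ps1-/- sample, and the name of 1 carries the word KO and that of the other the word het. Here they are the KO-named table and its het-named counterpart, with no genotype given to either.

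A miRNA is cut from a hairpin in a longer transcript, first by Drosha in the nucleus and then by Dicer in the cytoplasm. This leaves a short duplex with 1 strand from the 5′ side of the hairpin (the 5p arm) and 1 from its 3′ side (the 3p arm). An Argonaute protein keeps 1 of the strands, and its bases 2 to 8, the seed, choose the target mRNAs. Enzymes can trim the 3′ end or add untemplated bases to it, mostly U or A. In adult tissue miR-143 and miR-145 are made by vascular and visceral smooth muscle and related contractile or mesenchymal cells, and together they favour the contractile state of these cells. In the testis such cells are the peritubular myoid cells around the seminiferous tubules and the muscle cells of the vessel walls.

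The KO-named table held 54384974 reads, and 62773871 were in the het-named one, all of 18 to 32 nt. Reads of miRNA hairpins made up 12.3% and 10.4% of them, and reads of 18 to 20 nt, of any origin, 4.08% and 7.83%. The testis miRNAs fixed as markers ranged from abundant to scarce in both tables. Mir34c of meiotic and later germ cells stood at 5482 and 3963 reads per 1000000 reads (RPM), and Mir470, an X-linked testis miRNA, at 6767 and 6719 RPM. By contrast, Mir449b of the germ cell list had 21 and 20 reads. Each table is 1 library without a replicate, so no test was made between them. The intervals in parentheses are exact 95% binomial intervals. They cover counting error alone and treat each read as independent. Reads after PCR, with no molecular identifiers, are not independent molecules, so the intervals can be too narrow even for counting error. In whole testis, fewer cells of a type and less RNA per cell cannot be told apart.

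On GRCm38, Mir143 (ENSMUSG00000065445.3) lies on chromosome 18 from 61649196 to 61649258 and Mir145a (ENSMUSG00000065592.2) from 61647825 to 61647894, both on the minus strand. The hairpins are 63 and 70 nt long and stand 1301 bases apart, with Mir143 first in the direction of transcription. RefSeq places both inside Carmn, a long noncoding RNA gene also called Mir143hg, at 61645878 to 61665538. GENCODE M21 ends the same gene (ENSMUSG00000097324.8) at 61649625, which is 366 bases before Mir143, so that neither hairpin lies in an annotated GENCODE exon of it. The exons of that GENCODE gene gave 2 sense reads of 18 to 32 nt KO-named and 0 het-named, where a count of 0 allows up to 0.0478 RPM. Among the hairpins and these GENCODE exons, nearly all small RNA reads thus came from the hairpins. Parts of the RefSeq gene outside them were not searched. Antisense reads of the hairpins numbered 0 in both tables.

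By read counts Mir143 was one of the most abundant miRNAs in both tables, and Mir145a, from the same locus, had far fewer reads. Whether different sequences entered these libraries equally well was not tested. Comparisons between miRNAs or between arms are therefore of reads, not of molecules in the tissue. Mir143 had 446022 KO-named and 443147 het-named reads. This was 8201 RPM (8177 to 8225) and 7059 RPM (7039 to 7080), and it made up 6.68% and 6.82% of all miRNA reads. By reads it ranked 3 in both tables, between Mir22 and Mir871 (KO-named) and between Mir871 and Mir470 (het-named). Mir145a had 4093 and 3606 reads, or 75.3 RPM (73.0 to 77.6) and 57.4 RPM (55.6 to 59.4). Its rank was 105 and 112, with Mir181d the next lower in both. None of the exact reads of either gene matched another hairpin or any other annotated transcript, so that each could be given to 1 locus among the annotated transcripts.

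Between the tables both genes differed little. The KO-named level divided by the het-named level gave a ratio of 1.16 (1.157 to 1.167) for Mir143 and 1.31 (1.25 to 1.37) for Mir145a, or 0.22 and 0.39 on the log2 scale with 0.5 reads added to each count. Both ratios lay above 1 by more than counting error, and 0 of the 2 genes reached a log2 ratio of 1 in size. Of the 343 entries 4.66% did, 0.292% at or above 1 and 4.37% at or below -1, and the share was 3.35% of entries with at least 1000 reads and 4.94% of those with at least 50. The median log2 ratio was 0.17 over all 343 entries and 0.29 over the 259 whose symbol starts with Mir. Mir143 thus stood above the first median and below the second, while Mir145a lay above both. Relative to all miRNA reads the log2 ratio of Mir143 was -0.030 and that of Mir145a 0.14, so the direction for Mir143 depended on the scale. For each read of Mir145a there were 109.0 of Mir143 (105.7 to 112.4) among KO-named reads and 122.9 (118.9 to 127.0) among het-named reads.

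**Figure D1:**
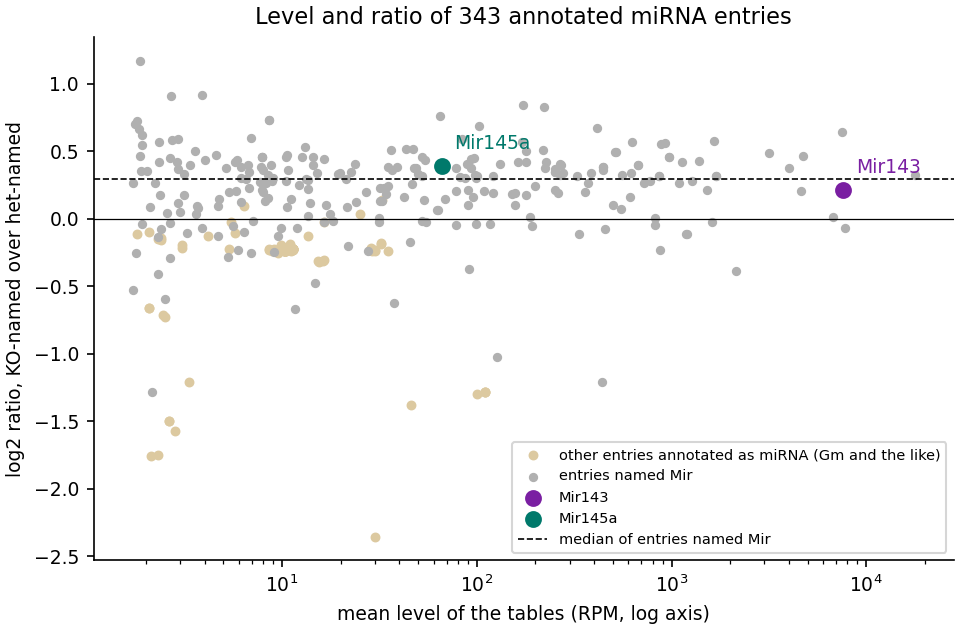
Each point is an annotated miRNA entry with at least 200 reads, with its mean RPM of both tables on a log axis and its log2 ratio, KO-named divided by het-named. Mir143 (0.22) lies far to the right and just below the dashed median of the entries named Mir (0.29), and Mir145a (0.39) just above it.

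The hairpins differed most in how their reads were divided between the arms. Mir143 was read almost wholly from its 3p arm, with 445964 reads against 58 of the 5p arm (KO-named) and 443076 against 70 (het-named). The 5p share was 0.0130% (0.00987 to 0.0168) and 0.0158% (0.0123 to 0.0200), within counting error of each other. At Mir145a the arms were nearly even. Its 5p arm, the one usually named as its guide, gave 2049 KO-named reads and its 3p arm 2035, and het-named they gave 1536 and 2062. The 5p share of its reads was therefore 50.1% (48.5 to 51.6) KO-named and 42.6% (41.0 to 44.2) het-named. By the share of its lesser arm, Mir145a ranked 4 of 247 entries named Mir with at least 200 reads and under 5% loop reads, and Mir143 ranked 222.

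The arm balance of Mir145a was its clearest difference between the tables. The 5p arm stood at 37.7 RPM KO-named and 24.5 RPM het-named, a ratio of 1.54 (1.44 to 1.65). For the 3p arm the levels were 37.4 and 32.8 RPM and the ratio 1.14 (1.07 to 1.21). Leaving loop reads aside, the 5p share differed by 7.48 percentage points. Among the 66 miRNAs whose lesser arm held at least 10% of reads, the median difference in size was 3.53 points and 12 of them differed by more than Mir145a. A difference of this size in the arm share was thus not confined to Mir145a. Reads across the loop of Mir145a numbered 9 and 8, of 1 distinct sequence in each table, and those of Mir143 0 and 1.

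**Figure D2:**
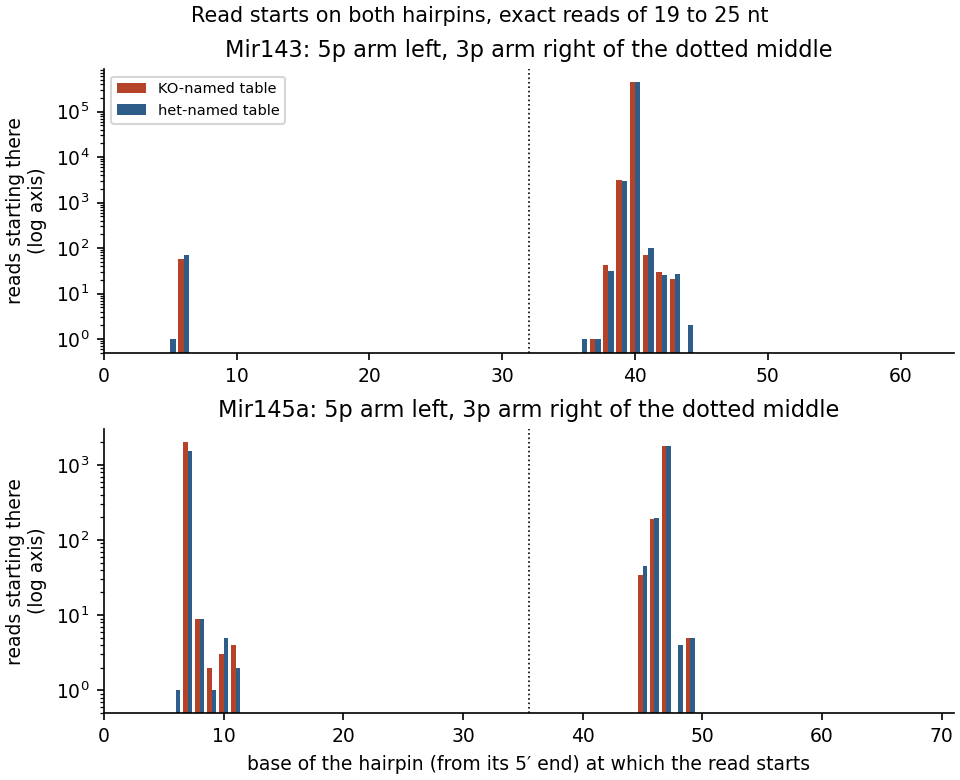
Bars give the number of exact reads of 19 to 25 nt, on a log axis, that start at each base of the hairpins, counted from the hairpin's 5′ end, with a colour for each table and a dotted line at the hairpin's middle. Mir143 has a single high peak at base 40 on the 3p side, while Mir145a has peaks of like height at base 7 on the 5p and base 47 on the 3p side, with a shoulder at base 46.

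Start sites were sharp in 3 of the 4 arms, and the exception was the 3p arm of Mir145a. A start that moves by 1 base moves the seed and with it the set of targets. Of the 3p reads of Mir143, 99.3% began at base 40 of the hairpin in both tables, and 0.702% and 0.655% began 1 base earlier. The 5p reads of Mir143 began at base 6 in 58 of 58 and 69 of 70 reads. For the 5p arm of Mir145a, 99.1% (98.6 to 99.5) and 98.8% (98.2 to 99.3) began at base 7. In its 3p arm only 88.6% (87.2 to 90.0) and 87.7% (86.2 to 89.1) of reads began at base 47. The start 1 base earlier held 9.43% (8.20 to 10.8) and 9.65% (8.41 to 11.0) of them, and the start 2 bases earlier 1.67% and 2.18%. For comparison, the median share at the main start was 99.2% in both tables over 177 miRNAs. These are entries named Mir with at least 1000 reads and a main arm outside the loop. The main-start share of Mir143 3p lay at that median and that of Mir145a 5p close to it, and the 3p arm of Mir145a, which had more reads than its 5p arm in the tables together, ranked 142 by its KO-named share.

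The seeds of the 4 arms were all different. Among 1738 mature mouse miRNAs listed by RefSeq, none had the seed of the main start of Mir143 3p, Mir145a 5p or Mir145a 3p, and 1, miR-1930-3p, had that of Mir143 5p. The list may not hold every mouse miRNA, so a seed not found in it is not shown to be unique in mouse. The earlier 3p starts of Mir145a gave seeds that no other listed miRNA had. In the fold computed by RNAfold the hairpins had free energies of -36.9 kcal/mol (Mir143) and -30.3 kcal/mol (Mir145a). Of the 20 bases of the main 3p form of Mir143, 17 were paired, and of the 21 of the main 3p form of Mir145a also 17.

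By exact reads the 3p arm of Mir143 was short for a miRNA, and its length differed slightly between the tables. Its mean length was 20.54 nt KO-named and 20.47 nt het-named, against medians of 21.74 nt in both tables over the 177 miRNAs. A shorter main arm was seen in 6 of these (KO-named). Mir143 3p was 0.07 nt longer in the KO-named table, which ranked 34 of the 177 from the largest gain. The main arms of 114 of the 177 were longer in that table. The form of 20 nt was the most frequent, with 49.3% and 53.8% of the 3p reads (4044 and 3801 RPM). Next came the form of 21 nt with 36.3% and 32.5% (2975 and 2296 RPM). The form of 22 nt held 10.03% and 8.70%, and that of 19 nt 3.54% and 4.12%. Among the KO-named 3p reads the forms of 21 and 22 nt thus held larger shares, and those of 19 and 20 nt smaller shares, than among the het-named ones. With reads that end in 1 to 3 unmatched bases added, 22 nt was the most frequent KO-named read length (35.4% of 3p reads, against 32.5% at 20 nt), and 20 nt remained so het-named (37.3% against 31.8% at 22 nt).

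From 19 to 22 nt the ratio between the tables rose with the length of the read. It was 0.996 (0.975 to 1.018) for Mir143 3p reads of 19 nt and 1.06 (1.058 to 1.070) for those of 20 nt. At 21 nt it was 1.30 (1.29 to 1.30) and at 22 nt 1.34 (1.32 to 1.36), and at 23 nt it was lower again, 1.24 (1.10 to 1.39), over 607 and 567 reads. The other miRNAs together gave 1.04 at 19 nt, 1.11 at 20 nt, 1.13 at 21 nt and 1.27 at 22 nt, and their ratio too was lower at 23 nt, 1.13. Over reads of all origins the ratio was 0.475 at 19 nt, 0.666 at 20 nt, 0.778 at 21 nt 1.05 at 22 nt and 0.943 at 23 nt. The part of this table-wide difference in read length in the ratio of Mir143 was not tested.

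Many 3p reads of Mir143 ended in bases that the hairpin does not hold, nearly always U. A tailed read is one whose first 18 or more bases match the hairpin and whose last 1 to 3 bases do not, and the exact rule leaves it out. Tailed 3p reads of Mir143 numbered 235977 (KO-named) and 200727 (het-named). They made up 34.6% (34.49 to 34.72) and 31.2% (31.07 to 31.29) of exact and tailed 3p reads together. Tails made of U alone were 96.3% and 96.1% of them. A single U was by far the most frequent tail, with 206455 and 176019 reads, followed by UU with 18863 and 15391 and UUU with 1842 and 1548. Tails of A alone came to 1866 and 1705 reads.

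The share of U tails differed with the end of the miRNA and was highest after 21 matched bases. After 21 matched bases, 56.1% (55.9 to 56.2) of the KO-named and 54.7% (54.6 to 54.9) of the het-named reads of the main start went on with U-only tails. After 20 matched bases this was 4.93% and 4.51%, and after 22 it was 4.72% and 4.18%. The rarer ends lay between, with 10.6% and 9.82% after 18 matched bases and 14.9% and 15.7% after 23. The 21 matched bases with 1 added U were the second most frequent form of the 3p arm in both tables, with 192883 and 163102 reads, or 3547 and 2598 RPM. That was more than the untailed form of 21 nt. Of all 3p reads of 22 nt, 81.0% and 80.7% were tailed, so the usual read of that length did not match the hairpin to its end.

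Several values bear on how this tail can be read. The base that follows in the hairpin after 21 matched bases is A, so an added A could not be told from the hairpin there. After 19 matched bases it is U, so the form of 20 nt and a form of 19 nt with an added U are the same read. At the place of the tail after 21 bases a single C stood in 544 and 469 reads and a single G in 380 and 371, far fewer than U. Inside the form of 20 nt, single mismatches at any 1 of its first 19 bases were found in 0.0445% to 0.401% of KO-named and 0.0423% to 0.463% of het-named reads. The linker named in the labels begins with T, followed by G, and tails of U followed by G after 21 bases numbered 264 and 261. If only the first linker base were left on a read it would look like a single added U, which this count cannot show. Whether single-U tails hold such bases was not tested. None of the tailed reads matched another annotated transcript. Carrying the tails changed the amounts too: with exact and tailed reads together Mir143 stood at 12543 and 10259 RPM, a ratio of 1.22 (1.218 to 1.227).

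**Figure D3:**
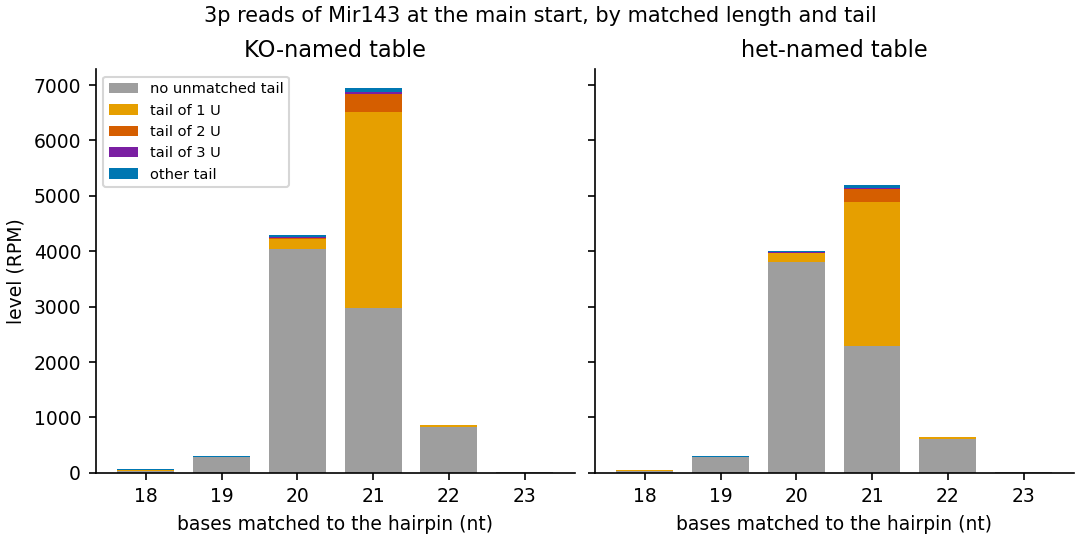
Stacked bars give the RPM of Mir143 3p reads at the main start by the number of bases matched to the hairpin, with 1 panel per table and colours for the tail that follows. Above the reads without a tail at 21 bases (2975 and 2296 RPM) stands a larger block with 1 added U (3547 and 2598 RPM), while the bars at 20 and 22 bases are nearly all untailed.

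Among the most abundant miRNAs Mir143 had the highest share of U tails. Reads with a U-only tail were 33.3% of all its exact and tailed KO-named reads and 30.0% of the het-named ones. The median over 177 entries named Mir with at least 1000 reads was 4.13% and 3.73%, and Mir143 ranked 9 in both tables. All 8 entries above it had far fewer reads, among them Mir148b (72.4% and 71.96%) and Mir322 (41.2% and 42.5%). Of the 28 entries with at least 100000 reads Mir143 ranked 1, and the next was Mir127 with 11.2% and 8.36%. The gap depends on that minimum: just below it, Mir151 with 96221 reads had 16.7% and 16.8%, and Mir465c-1 with 78118 reads had 22.7% and 22.4%. The U-only share of Mir143 was 3.34 points higher in the KO-named table, and 4 entries had a larger excess there. Over the 177 entries the median of the signed difference, KO-named minus het-named, was 0.11 points. Differences of opposite sign cancel in this median: 112 entries lay above 0, and the lowest value was -3.55 (Mir194-2). Where a hairpin goes on with U after the usual end of its miRNA a U tail cannot be seen, so these shares are lower limits for such entries.

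**Figure D4:**
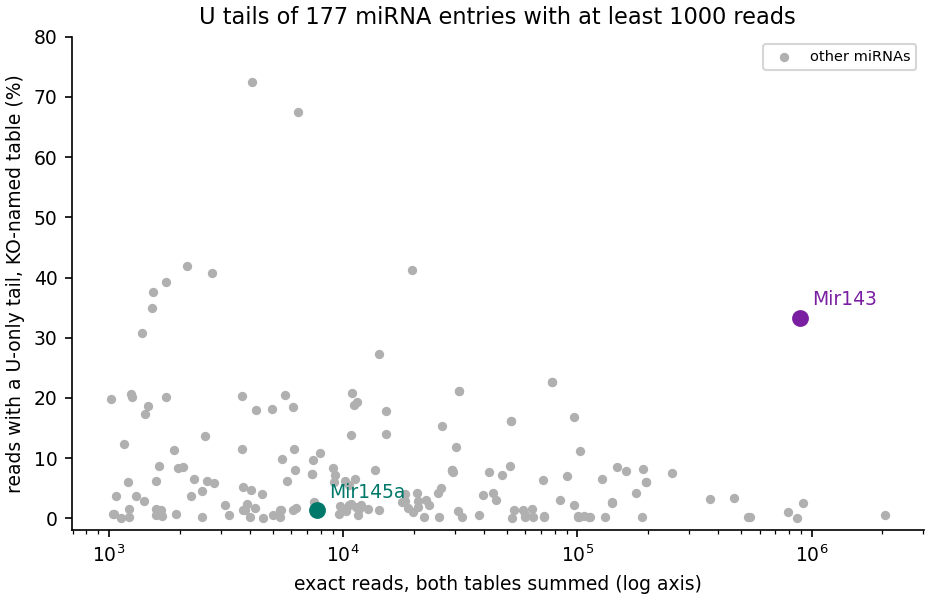
Each point is an entry named Mir with at least 1000 exact reads, with the reads of both tables summed on a log axis and the share of its reads with a U-only tail in the KO-named table in percent. Mir143 at 33.3% is the highest of the entries with at least 100000 reads, and Mir145a lies near the floor at 1.38%.

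Mir145a had fewer tails, and of another kind. Its tailed reads numbered 560 (KO-named) and 433 (het-named), 12.04% (11.1 to 13.0) and 10.7% (9.78 to 11.7) of exact and tailed reads. In the 3p arm 445 and 323 reads were tailed, which is 17.9% (16.5 to 19.5) and 13.5% (12.2 to 15.0). The most frequent 3p tails were a single A (153 and 113 reads) and a single C (106 and 101), and those of U alone were 56 and 44. Most followed 20 matched bases, where a single A stood in 120 and 81 reads, a single C in 100 and 96 and a single G in 42 and 24; the hairpin holds U there, so that these are also reads of 21 nt with a mismatch at the last base. After the main 3p end at 21 matched bases, where an added U can be seen, U-only tails followed in 2.67% (1.89 to 3.67) and 2.51% (1.75 to 3.49) of reads. This is far below the share at the 21-base end of Mir143, and the hairpins differ in it by more than counting error. The 5p arm had 115 and 110 tailed reads, 5.31% and 6.68% of its reads. After its main end the hairpin goes on with U, so an added U is hidden there.

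The forms of Mir145a differed between arms in length as well as in ratio. Of the 5p reads, 86.0% (84.4 to 87.5) and 81.6% (79.5 to 83.5) were 23 nt long, and their mean length was 22.87 and 22.83 nt. The 3p reads were mainly of 21 nt, with 66.8% and 64.6%, and had a mean length of 20.73 nt in both tables. The 5p form of 23 nt stood at 32.4 RPM KO-named and 20.0 RPM het-named, a ratio of 1.62 (1.51 to 1.75). The next most frequent 5p form, of 22 nt, had 136 and 129 reads and a ratio of 1.22 (0.949 to 1.56). For the main 3p form of 21 nt the levels were 24.1 and 20.6 RPM and the ratio 1.17 (1.08 to 1.26). Behind it at the same start came the forms of 20 nt, with 302 and 314 reads, and 19 nt, with 192 and 198. The form of 22 nt that starts 1 base earlier, at base 46, and ends at the same base as the main form had 136 and 153 reads. The ratios of these lesser 3p forms were 1.11 (0.945 to 1.30), 1.12 (0.913 to 1.37) and 1.03 (0.808 to 1.30), and none lay apart from 1 by more than counting error. The higher 5p share of the KO-named table thus lay mainly in the form of 23 nt. With tails added the 5p ratio was 1.52 (1.42 to 1.62) and the 3p ratio 1.20 (1.13 to 1.27). Tailed reads alone gave 1.21 (0.921 to 1.58) for the 5p and 1.59 (1.37 to 1.84) for the 3p arm, the reverse order, with intervals that overlap.

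**Figure D5:**
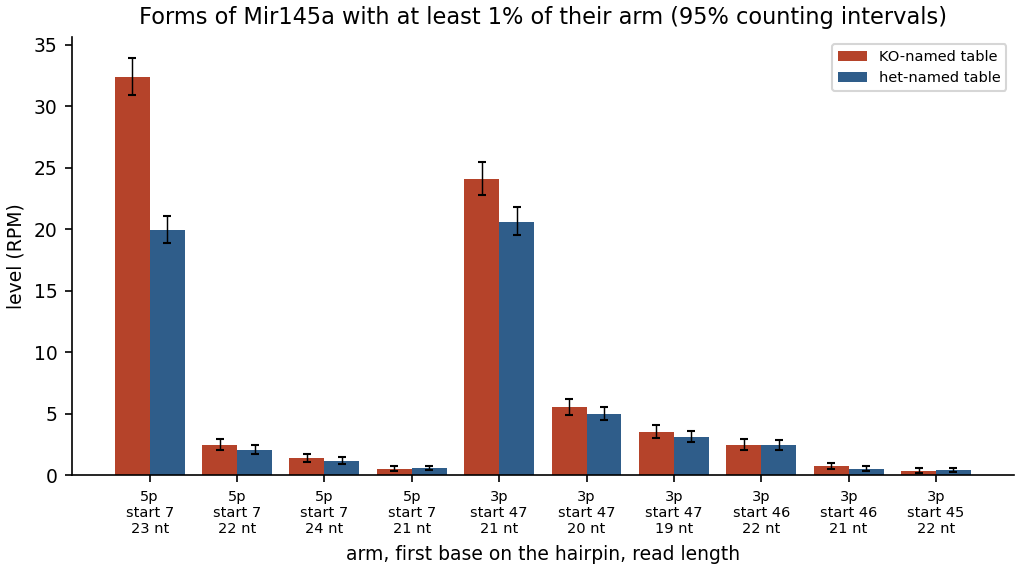
Bars give the RPM of each exact form of Mir145a that held at least 1% of its arm in either table, named by arm, first base on the hairpin and read length, with 95% counting intervals. The 5p form of 23 nt is higher in the KO-named table (32.4 against 20.0 RPM), and the bars of the 3p forms lie closer together.

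The 5p reads of Mir143 were few. Exact reads were mainly of 23 nt, 49 of 58 KO-named and 44 of 70 het-named. Tailed reads outnumbered them, with 142 and 137. The most frequent form with tails counted was that of 23 bases with 1 added U, in 68 and 57 reads, and next to the exact form of 23 nt came 21 bases with 1 added A, in 37 and 40. With tails the 5p arm had 200 and 207 reads, a ratio of 1.12 (0.914 to 1.36), and remained under 0.04% of the gene's reads.

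Muscle miRNAs other than Mir143 and Mir145a had few reads. Of the 11 smooth and striated muscle miRNAs listed, 5 had at least 200 reads, and all 5 had log2 ratios above 0 and under 1; of the 259 entries named Mir 1.54% were at or past 1 in size. The 5 include Mir143 and Mir145a, and the list's median of 0.39 is the value of Mir145a itself, so it says nothing apart from these genes. Mir133a-1 and Mir133a-2, which share their mature sequence and so split its reads, had 10.7 and 6.44 RPM each (log2 0.73). Mir208b, known from the heart, had 3.49 and 2.77 RPM (0.33). Mir133a is known from striated muscle and stood above 0, while others of that kind had few reads or none. Mir1a-1 and Mir1a-2 had 9 and 6 reads each, and Mir206 of skeletal muscle had 0, which allows up to 0.0552 RPM (KO-named) and 0.0478 RPM (het-named). Mir143 alone made up nearly all of the summed level of the list, which was 8303 and 7133 RPM.

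Most measured miRNAs of the other lists also had log2 ratios above 0, as 209 of the 259 entries named Mir did. All 10 fibroblast and other mesenchymal entries were measured and had log2 ratios above 0, with a median of 0.36. They ran from 0.15 (Mir214) to 0.70 (Mir29b-1, with 118.5 and 84.0 reads). These are not 10 independent values. Mir199a-1, Mir199a-2 and Mir199b share reads, as do Mir29b-1 and Mir29b-2, and shared reads were split between the entries. The same holds for some entries of the other lists, such as Mir125b-1 and Mir125b-2. Mir21a (746 and 504 RPM, 0.57), Mir199a-2 (281 and 222 RPM as its part of the shared reads, 0.34) and Mir29a (107 and 79.0 RPM, 0.44) were among those with most reads. Endothelial Mir126a stood at 408 and 340 RPM (0.26). The 3 blood miRNAs measured had a median of 0.91 at a summed level of 65.9 and 44.5 RPM for the list. Of the Sertoli and somatic testis miRNAs, 4 of 6 lay above 0 and 2 below, with a median of 0.10 and Mir10b (19697 and 15718 RPM, 0.33) as the most abundant. Of the duct epithelium list 4 of 6 were measured, all above 0, with a median of 0.48 and a summed level of 179 and 120 RPM. Among germ cell miRNAs, 4 of the 5 measured meiotic and 12 of the 14 X-linked lay above 0, with medians of 0.33 and 0.36. Of the members of these lists with at least 200 reads, none reached 1 in size. Below that minimum, Mir144 of blood had 99 and 55 reads, and Mir150 of the same list went the other way with 23 and 32. The part of the other cell types in the ratios of Mir143 and Mir145a was not tested.

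With a pair of tables, likeness to another miRNA comes down to a like ratio. Of 237 other entries with at least 1000 reads, those nearest to Mir143 in log2 ratio were Mir30b, Mir30d and Mir125b-1 (all 0.21). Nearest to Mir145a were Mir210 (0.39), Mir880 (0.38) and Mir468 (0.40). The levels of these miRNAs ranged from 9.95 to 1640 RPM in the KO-named table, so that a ratio was shared by miRNAs of very different abundance.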

How the data were processed

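The labels describe directional small RNA libraries: Trizol total RNA of testis, 20 µg per sample, RNA of 15 to 40 nt cut from a 15% gel, TruSeq Small RNA kit. The deposited tables give each distinct sequence with its raw count of reads, unscaled, as the values show. Trimming and filtering tools: not given in the sources used here.

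Sequences were matched exactly and sense to all GENCODE M21 miRNA entries (GRCm38) in Python 3.11.15 (numpy 2.4.6, pandas 2.3.3, scipy 1.17.1, matplotlib 3.10.9). A read of several hairpins counted by equal shares. Reads covering the middle base of a hairpin were called loop reads, and the others belonged to the arm of their centre. For tails, shares over all miRNAs used entries with at most 10% of reads ending at the hairpin's last base. Hairpins were folded with RNAfold 2.7.2. Intervals are Clopper-Pearson at 95%, and those of ratios use the conditional binomial. Simulated data were used to check the ratios, their intervals and the rule for tails of 1 base.

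The genes, lists and tests were chosen with earlier results of these data known. The rule named both genes, each form with at least 1% of its arm, up to 4 members per list and the 3 miRNAs nearest in ratio; further list members named here were chosen after their values were seen. Alternatives were other scalings, lengths, minimums, distinct sequences, tails and, added after seeing the data, entries named Mir alone and tails in the ratios. The letters of the reads are not reported here.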

Additional observations from a re-analysis of the deposited data

How the results depend on the processing

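The log2 ratio of Mir143 (0.22) was -0.030 when scaled to miRNA reads. In an alternative chosen after seeing the data it was -0.078 relative to the median entry named Mir. With distinct sequences it was -0.11, from only 29 KO-named and 34 het-named sequences. Such a value counts different reads and is not a level. The log2 ratio of Mir143 was 0.13 when scaled to reads of 24 to 32 nt and 0.043 against the median of all entries. With reads of 21 to 23 nt it was 0.38, and with tailed reads added, also chosen after seeing the data, 0.29. That of Mir145a (0.39) was -0.16 with distinct sequences, from only 23 KO-named and 28 het-named ones. It was 0.14 when scaled to miRNA reads, 0.31 to reads of 24 to 32 nt, 0.22 to the median entry and 0.10 to the median entry named Mir. With reads of 21 to 23 nt, Mir143 outnumbered Mir145a 60.8-fold in the KO-named and 63.04-fold in the het-named table, since its main form of 20 nt is left out, and 146.6-fold and 159.4-fold with tails. The 5p share became 0.0276% and 0.0376% for Mir143 and 56.1% and 48.4% for Mir145a with 21 to 23 nt, and 0.0293% and 0.0321%, and 46.5% and 40.8%, with tails, so the 5p share of Mir145a was higher in the KO-named table each time. The main-start share of Mir143 3p was 99.2% and 99.3% (99.22 and 99.27) with reads of 18 to 32 nt and 98.6% and 98.5% with 21 to 23 nt, and that of Mir145a 3p 86.2% and 85.2% with 21 to 23 nt. Tails of 1 base made up 32.002% and 28.8% for Mir143 and 9.43% and 8.94% for Mir145a, and with at least 20 matched bases the tailed share of Mir143 was 35.2% and 31.8%. Entries at or past a log2 ratio of 1 numbered 16, against 8 with at least 1000 reads, 27 with at least 50 and 4 of those named Mir. Of 61 alternative values 22 stayed within the counting interval of the main value. No paired analysis was possible because each table is 1 library and neither carries a replicate number. Depth limits the 5p arm of Mir143, with 58 and 70 reads.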
